A study of Homo sapiens with 4 samples.

Results

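The ribosomal proteins measured in this study form 2 classes, those of the cytosolic ribosome and those of the mitochondrial ribosome. Members were taken by gene symbol among the probes that carry exactly 1 symbol, RPL and RPS names for the cytosolic class and MRPL and MRPS names for the mitochondrial class. They comprise 99 of 12483 genes and 137 of 20976 probes with 1 symbol. The cytosolic class held 47 genes on 67 probes, 31 of them genes of the large (60S) subunit and 16 of the small (40S) subunit. The mitochondrial class held 52 genes on 70 probes. By name alone, 31 of the genes (MRPL) were counted as large (39S) and 21 (MRPS) as small (28S) subunit. MRPS30 and MRPS18A, counted as 28S here, are proteins of the 39S subunit. Each probe is a cDNA clone, and 15 cytosolic and 13 mitochondrial genes had 2 or more clones. A gene table for the current genome lists 81 cytosolic and 77 mitochondrial symbols that fit these names, so 47 of 81 and 52 of 77 were analysed here.

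The samples were cultures of A549, a human lung adenocarcinoma cell line, that overexpressed the microRNA gene let-7a-3, one of the let-7 family, and parental A549 cultures. Both kinds of culture were grown in the same medium without other treatment. On each of 4 two-colour cDNA arrays an overexpressing culture was set against a parental one, with the dyes exchanged between arrays 1 and 3 and arrays 2 and 4. The parental line is the only control, so transfection and selection cannot be told apart from let-7a-3, and whether the overexpressing cultures share 1 transfected line is not stated. If they do, the p-values measure only the spread between these cultures.

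Cytosolic ribosomes translate the mRNAs of the nucleus, and nearly all of their proteins are needed in equal amounts, with unassembled copies being degraded. Their mRNAs typically begin with a C and a run of pyrimidines, the terminal oligopyrimidine (TOP) motif, through which the mTOR pathway and LARP1 control their translation. Mitochondrial ribosomal proteins are also encoded in the nucleus, are imported into mitochondria, and build the ribosome that makes the core respiratory-chain subunits encoded by mitochondrial DNA.

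The mature let-7a is shown because its gene was overexpressed, with the seed (bases 2 to 8) in capitals. It is from RefSeq on GRCh38.p14, at chr22:46112752-46112773 on the + strand for the let-7a-3 locus.
hsa-let-7a-5p: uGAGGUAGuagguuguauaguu

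The starts of 6 ribosomal protein genes are shown because their clones carry the results below. Each sequence runs from 25 bases before the annotated start to 35 bases from it, read 5′ to 3′ from the RefSeq promoter table on GRCh38.p14. Capitals mark a pyrimidine run, defined as a C within 3 bases of the annotated start followed by at least 4 pyrimidines. RPL7A lies at chr9:133348193-133348252 (+), RPL21 at chr13:27251533-27251592 (+), RPL13A at chr19:49487583-49487642 (+), RPL26 at chr17:8383159-8383218 (-), RPL27 at chr17:42998394-42998453 (+) and MRPS33 at chr7:141014918-141014977 (-).
RPL7A: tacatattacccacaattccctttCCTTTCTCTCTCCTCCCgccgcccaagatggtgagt
RPL21: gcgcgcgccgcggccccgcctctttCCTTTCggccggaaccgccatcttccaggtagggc
RPL13A: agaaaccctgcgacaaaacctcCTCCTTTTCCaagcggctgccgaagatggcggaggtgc
RPL26: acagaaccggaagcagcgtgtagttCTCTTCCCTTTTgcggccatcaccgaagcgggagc
RPL27: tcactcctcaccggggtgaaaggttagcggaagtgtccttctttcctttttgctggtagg
MRPS33: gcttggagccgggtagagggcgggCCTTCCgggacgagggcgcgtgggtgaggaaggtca

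The run was 17 bases long in RPL7A, 12 in RPL26, 10 in RPL13A, and 6 in both RPL21 and MRPS33. RPL27 had no run at its annotated start by this definition, although its printed sequence holds a long pyrimidine run further downstream. Of the cytosolic genes, 38 of 47 were found in the promoter table, and 28 of these 38 (73.7%) had the run. Of the mitochondrial genes, 45 of 52 were found, and 6 of the 45 (13.3%) had it, close to the 13.6% of all 15842 protein-coding genes of the table. Motifs known from ribosomal protein and mitochondrial promoters were searched on both strands of the 300-base windows. The YY1 motif AAGATGGC was in 7.9% of the cytosolic, 28.9% of the mitochondrial and 3.91% of all windows. Its shorter core ATGGC, which lies inside it, was in 52.6%, 75.6% and 37.4%. The ETS motif CCGGAAG was in 36.8%, 40% and 14.2%, and the NRF1 motif (GCGC, any base, TGCGC) in 15.8%, 15.6% and 8.57%. These letters are descriptions of the windows, and no binding was measured.

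**Figure D1:**
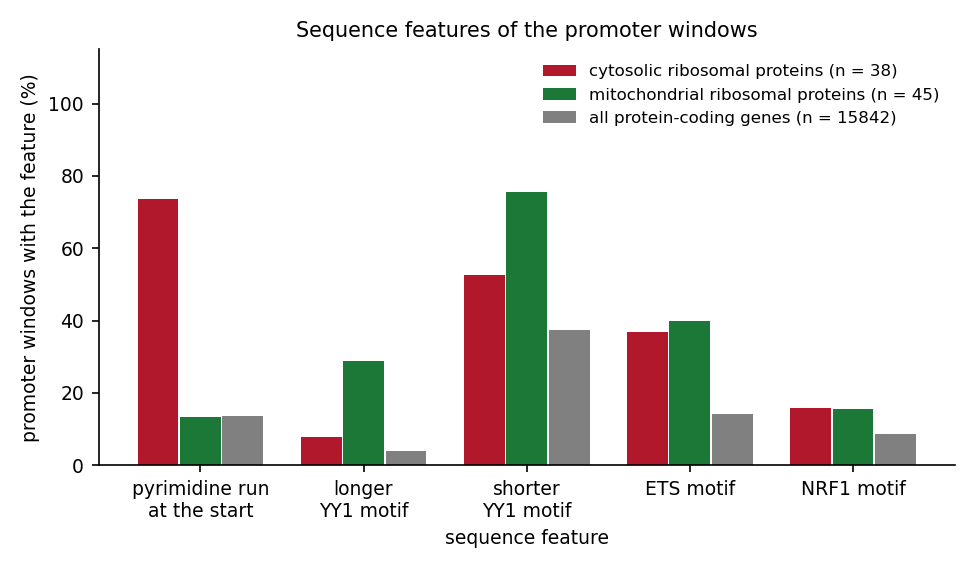
Share of promoter windows (%) that hold each sequence feature, for cytosolic ribosomal protein genes (n = 38), mitochondrial ribosomal protein genes (n = 45) and all protein-coding genes of the table (n = 15842). The pyrimidine run at the start stands at 73.7% in the cytosolic class, against 13.3% in the mitochondrial class, while the ETS motif stands at 36.8% and 40% and the NRF1 motif at 15.8% and 15.6%.

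The deposited values are normalised log ratios of the 2 channels, 1 per array and probe. The base of the logarithm, the channel in the numerator and whether swapped arrays had been turned before deposit are not stated. Values are therefore log ratios as deposited, no fold is given, and a positive value is not assigned to either culture. With the sign turned, every positive value would be negative. Each probe was fitted in limma with 2 coefficients: the shared component, which is the mean of the 4 arrays, and the alternating component, which takes the sign that arrays 1 and 3 have relative to arrays 2 and 4. If the deposited ratios were turned to 1 orientation, the shared component holds the difference between cultures; if not, the alternating component does, and the dye effect is in the other. A probe passed the test at an adjusted p of 0.05, adjusted over all 26629 probes. Precision is limited by the number of arrays, clones of near-identical paralogues and processed pseudogenes may share signal, and ratios give no level, so the identity of the cells could not be checked by the level of markers.

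In the shared component 8 of 67 cytosolic probes (11.9%) passed the test, against 1 of 70 mitochondrial probes (1.43%) and 2.07% of all probes. The 8 cytosolic probes stand for 5 genes, all of the 60S subunit: RPL7A, RPL27 and RPL26 were negative, and RPL21 and RPL13A were positive. The mitochondrial probe was MRPS33, which was positive. At an unadjusted p under 0.05 there were 20 cytosolic (29.9%) and 9 mitochondrial probes (12.9%), against 12.5% of all probes. The share is a description: 3 of the probes are RPL7A clones and 2 are RPL21 clones, and no enrichment was tested. Without array 2 the cytosolic count was 2, and without array 4 it was 3, all of them RPL7A clones, and MRPS33 was lost in both. Without array 1 or array 3 it was 5 each time, and without the orientation term in the fit it was 1, an RPL7A clone. The count over all probes was 550 with all arrays (298 positive and 252 negative), 271 without array 2 and 286 without array 4. It was 509 without array 1, 884 without array 3 and 231 without the orientation term.

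RPL7A, an RNA-binding protein of the 60S subunit whose introns carry small nucleolar RNAs, had the largest shared values of both classes. Its first clone (IMAGp998M062227) read -0.55 and -0.43 on arrays 1 and 3 and -0.56 and -0.47 on arrays 2 and 4, a mean of -0.50 ± 0.06 (SD, n = 4, limma adjusted p = 0.000789). Its second clone (RZPDp202B128D) read -0.70 and -0.78 on arrays 1 and 3 and -0.27 and -0.12 on arrays 2 and 4, a mean of -0.47 ± 0.32 (SD, n = 4, adjusted p = 0.00153). The third clone (RZPDp202G078D) read -0.52 and -0.49 on arrays 1 and 3 and -0.22 and -0.19 on arrays 2 and 4, a mean of -0.35 ± 0.18 (SD, n = 4, adjusted p = 0.00526). All 3 clones were below 0 on all 4 arrays. The first clone was alike in both orientations, whereas the other 2 were further from 0 on arrays 1 and 3.

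RPL26 is a 60S protein near the exit of the nascent chain that also binds the p53 mRNA, and RPL27 is a 60S protein mutated in some cases of Diamond-Blackfan anaemia. RPL27 read -0.34 and -0.43 on arrays 1 and 3 and -0.08 and -0.12 on arrays 2 and 4 (mean -0.24 ± 0.17, SD, n = 4, adjusted p = 0.0415). RPL26 read -0.38 and -0.43 on arrays 1 and 3 and -0.03 and -0.10 on arrays 2 and 4 (mean -0.24 ± 0.20, SD, n = 4, adjusted p = 0.0472). Both genes were below 0 on every array and, like 2 of the RPL7A clones, lay further from 0 in the orientation of arrays 1 and 3. Neither passed in the alternating component (limma adjusted p = 0.121 for RPL27 and 0.0828 for RPL26).

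The positive 60S genes were RPL21 and RPL13A. RPL13A is also known for leaving the ribosome to silence inflammatory mRNAs in myeloid cells, and it is a common reference gene in quantitative PCR. The first RPL21 clone (IMAGp998O08698) read 0.19 on both arrays 1 and 3 and 0.36 and 0.28 on arrays 2 and 4 (mean 0.26 ± 0.08, SD, n = 4, adjusted p = 0.0327). The second (RZPDp1096G033D) read 0.34 and 0.37 on arrays 1 and 3 and 0.23 and 0.13 on arrays 2 and 4 (mean 0.27 ± 0.11, SD, n = 4, adjusted p = 0.0298). RPL13A read 0.30 and 0.45 on arrays 1 and 3 and 0.20 and 0.14 on arrays 2 and 4 (mean 0.27 ± 0.14, SD, n = 4, adjusted p = 0.0316). The RPL21 clones agree in sign and mean but lean to opposite orientations.

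No 40S probe passed in the shared component. The highest was RPS20, a small-subunit protein of the head domain, at 0.18 and 0.15 on arrays 1 and 3 and 0.36 and 0.21 on arrays 2 and 4 (mean 0.23 ± 0.09, SD, n = 4, adjusted p = 0.0679). RPS16 followed at 0.21 (adjusted p = 0.102) and 1 of the 2 clones of RPS4X, the X-linked form of RPS4, at 0.17 (adjusted p = 0.41), the other being at 0.13. The lowest was 1 of the 2 RPS10 clones at -0.15 (adjusted p = 0.213), the other being at 0.0026.

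MRPS33, a 28S protein with no bacterial counterpart, had 2 clones. The clone that passed (IMAGp998B221786) read 0.28 and 0.36 on arrays 1 and 3 and 0.30 and 0.21 on arrays 2 and 4 (mean 0.29 ± 0.06, SD, n = 4, adjusted p = 0.0215). The other read 0.08 and -0.16 on arrays 1 and 3 and 0.27 and 0.25 on arrays 2 and 4 (mean 0.11 ± 0.20, SD, n = 4, adjusted p = 0.472). The clones agree on arrays 2 and 4 and part on arrays 1 and 3. At the other end of the class were the 39S proteins MRPL33 at -0.28 (adjusted p = 0.0696) and 1 of the 2 MRPL48 clones at -0.23 (adjusted p = 0.0569), both below 0 on all 4 arrays and neither past the threshold. The other MRPL48 clone lay above 0 on all 4 arrays, at 0.11, and the gene averaged -0.06. They were followed by MRPS11 (-0.15), a clone of MRPS28 (-0.14, the other at -0.09) and MRPL17 (-0.14). The highest clones after MRPS33 were those of MRPS6 (0.17), MRPL42 (0.17), MRPS17 (0.11) and MRPS23 (0.11), and none of these passed. The 5 MRPS6 clones ran between -0.10 and 0.17 with a gene average of 0.01, and the other MRPL42 clone stood at 0.02.

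**Figure D2:**
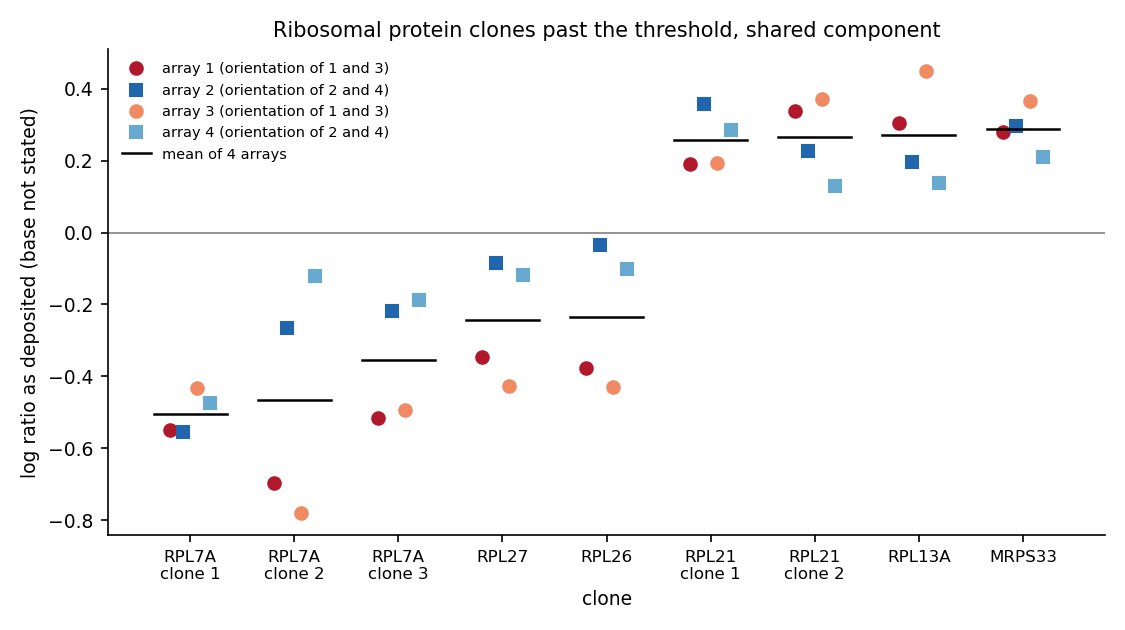
Log ratio as deposited (base not stated) of each clone past the threshold in the shared component, with 1 point per array (circles for arrays 1 and 3, squares for arrays 2 and 4) and a line at the mean of the 4 arrays. The 3 RPL7A clones, RPL27 and RPL26 lie below 0 on every array, and the RPL21 clones, RPL13A and MRPS33 lie above 0 on every array.

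Averaged per gene and tested over all 12483 genes, 6 of 47 cytosolic genes (12.8%) passed in the shared component, against 1 of 52 mitochondrial genes and 3.04% of all genes. Beside the 5 genes above these included RPS20, whose single probe had an adjusted p of 0.0339 over genes in place of 0.0679 over probes. RPL7A averaged -0.44 ± 0.16 over its clones (SD, n = 4, adjusted p = 0.000912), RPL21 0.26 ± 0.04 (SD, n = 4, adjusted p = 0.0141) and MRPS33 0.20 ± 0.08 (SD, n = 4, adjusted p = 0.0437). The cytosolic count was made up of 3 positive and 3 negative genes, beside 203 positive and 176 negative among all genes that passed.

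In the alternating component 7 of 67 cytosolic probes (10.4%) passed the test, against 0 of 70 mitochondrial probes and 4.28% of all probes. At an unadjusted p under 0.05, limma counted 24 of 67 cytosolic (35.8%) and 18 of 70 mitochondrial probes (25.7%), against 25.2% of all probes. Of the 7 probes, 6 were negative, that is lower on arrays 1 and 3 than on arrays 2 and 4. Of all probes that passed in this component, 747 were positive and 394 negative. Without array 4 none passed, and 138 of all 26629 probes did. Without array 2 all 7 were lost and another probe, RPL23, passed, beside 113 of all probes. Without array 3 the count was 4, with 3 of the 7 kept, and without array 1 it was 10, with 6 of the 7 kept. Over all probes these last fits called 1132 and 1874, against 1141 with all arrays. Tested per gene, 3 of 47 cytosolic genes (RPL10, RPL6 and RPS19) and 0 of 52 mitochondrial genes passed, beside 3.29% of all genes. By limma 17 of 47 cytosolic (36.2%) and 17 of 52 mitochondrial genes (32.7%) reached p under 0.05 before adjustment, as did 25.6% of genes in all.

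RPL10, a 60S protein that joins late in assembly and is mutated in some T-cell leukaemias, read -0.20 and -0.08 on arrays 1 and 3 and 0.37 and 0.48 on arrays 2 and 4, an alternating coefficient of -0.28 ± 0.05 (SE, n = 4, limma adjusted p = 0.0289). RPL6, another 60S protein, read -0.20 and -0.33 on arrays 1 and 3 and 0.19 and 0.28 on arrays 2 and 4 (-0.25 ± 0.05, SE, n = 4, adjusted p = 0.0359). RPS19, the 40S protein most often mutated in Diamond-Blackfan anaemia, read -0.38 and -0.34 on arrays 1 and 3 and 0.15 and 0.14 on arrays 2 and 4 (-0.25 ± 0.05, SE, n = 4, adjusted p = 0.031). These 3 genes were chosen by this coefficient, so the gap between their orientations is no separate result. The second clones of RPL10 (-0.15) and RPS19 (-0.15) had the same sign without passing.

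The second RPL7A clone (-0.27, adjusted p = 0.031), RPL24 (-0.22, adjusted p = 0.049) and RPS12 (-0.21, adjusted p = 0.0495) were the other negative probes. RPL24 is a 60S protein that forms a bridge to the small subunit, and RPS12 is a 40S protein. The second RPL24 clone stood at -0.10 without passing, and the second RPS12 clone at 0.04, so the RPS12 clones did not share a sign. RPL10A, a 60S protein of the stalk opposite the P stalk, was the positive one, at 0.16 and 0.15 on arrays 1 and 3 and -0.33 and -0.24 on arrays 2 and 4 (0.22 ± 0.05, SE, n = 4, adjusted p = 0.045). Its 5 clones ran between -0.06 and 0.22 in this component. RPL23, an MDM2-binding 60S protein, had the largest positive coefficient (0.32, adjusted p = 0.106) but was scattered, at 0.28 and -0.05 on arrays 1 and 3 and -0.16 and -0.88 on arrays 2 and 4. RPL11 (0.19), a clone of RPS4X (0.16, the other at -0.12) and RPL3L (0.13), the muscle paralogue of RPL3, were the next highest and did not pass.

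**Figure D3:**
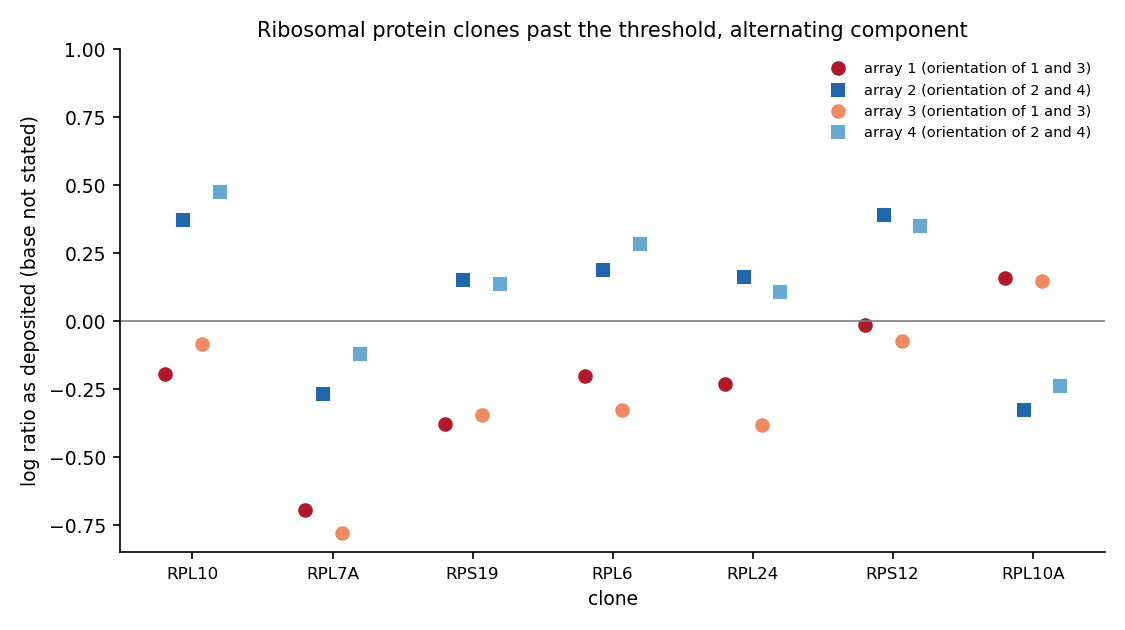
Log ratio as deposited (base not stated) of each clone past the threshold in the alternating component, with 1 point per array (circles for arrays 1 and 3, squares for arrays 2 and 4). In 6 of the 7 clones arrays 1 and 3 lie below arrays 2 and 4, and RPL10A lies the other way.

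Among the mitochondrial proteins the lowest alternating coefficients were those of MRPS28 (-0.22, adjusted p = 0.0915), MRPL23 (-0.20, adjusted p = 0.0691), MRPS12 (-0.19, adjusted p = 0.0692), MRPL15 (-0.17, adjusted p = 0.0985) and MRPL14 (-0.15, adjusted p = 0.123). MRPS12 is the counterpart of the bacterial decoding-centre protein S12. The highest were MRPS9 (0.16), MRPS23 (0.13), MRPS22 (0.13), MRPS35 (0.13) and MRPS17 (0.13), all 28S proteins, with adjusted p between 0.142 and 0.166. MRPS28, MRPS9 and MRPS22 each had a second clone, at -0.05, 0.01 and 0.07.

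**Figure D4:**
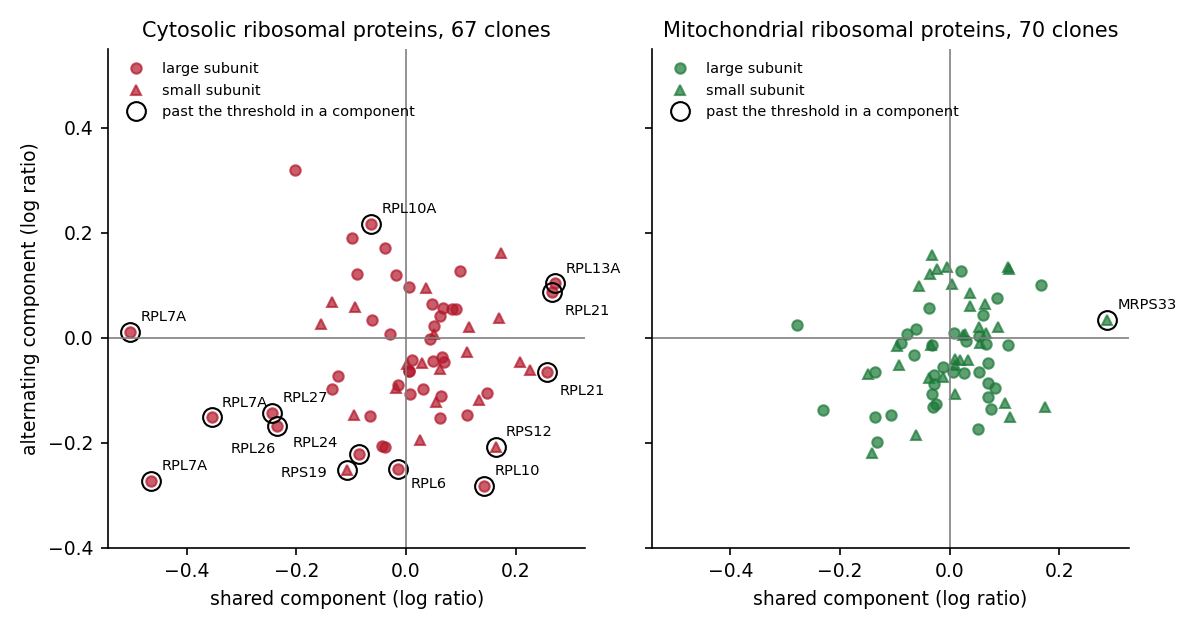
Shared component (x axis, log ratio as deposited) against alternating component (y axis) of each cytosolic (left, 67 clones) and mitochondrial (right, 70 clones) ribosomal protein clone, with circles for the large and triangles for the small subunit and rings around clones past the threshold in either component. The cytosolic clones spread more widely (SD 0.149 and 0.127) than the mitochondrial clones (SD 0.0915 and 0.0914). The 3 clones of RPL7A are the lowest cytosolic ones in the shared component and are included in its SD. Subunits are by name, with MRPS30 and MRPS18A drawn as small.

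Across the classes, the cytosolic coefficients had an SD of 0.149 in the shared component, against 0.0915 for mitochondrial and 0.109 for all probes. The 3 clones of RPL7A, at -0.50, -0.47 and -0.35, were the lowest cytosolic values there, and the SD without them was not computed. In the alternating component the SD was 0.127, against 0.0914 and 0.117. A shared size over 0.2 was reached by 11 of 67 cytosolic and 3 of 70 mitochondrial probes, against 4.22% of all probes. The centres were close to 0: the shared medians were 0.0261 for cytosolic and 0.00977 for mitochondrial probes, against 0.00814 for all, and the alternating medians were -0.0463 and -0.0241, against -0.00968 for all. The difference of class medians, cytosolic minus mitochondrial, was 0.0163 in the shared and -0.0222 in the alternating component. Array by array it was -0.0236, 0.0609, -0.0206 and -0.0038, with an SD of 0.0394, or 0.0267 once arrays 2 and 4 are turned. Neither value exceeded this SD of single arrays, which is wider than the error of a mean over 4 arrays. Both changed sign under other settings.

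By subunit, the 40S median was 0.147 and 0.0898 on arrays 2 and 4 and -0.00102 and -0.0734 on arrays 1 and 3. The 39S median was 0.0386 and 0.0524 on arrays 2 and 4 and -0.0385 and -0.0696 on arrays 1 and 3. The 60S median was 0.0527 and 0.0286 on arrays 2 and 4 and -0.0335 and -0.0346 on arrays 1 and 3. The median of all probes was 0.0174 and 0.0111 on arrays 2 and 4 and 0.0062 and -0.00217 on arrays 1 and 3. The orientations did not overlap in any of these, all probes included. The 28S median stayed between 0.00647 and 0.0382 on all 4 arrays. In the alternating component 26 of 36 39S probes were negative, against 17 of 34 28S probes and 14187 of all 26629 probes. No test was made of these shares, and subunits are by name. The 28S set includes the 39S proteins MRPS30, at -0.01, -0.08 and -0.04 over its clones, and MRPS18A, at 0.01.

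**Figure D5:**
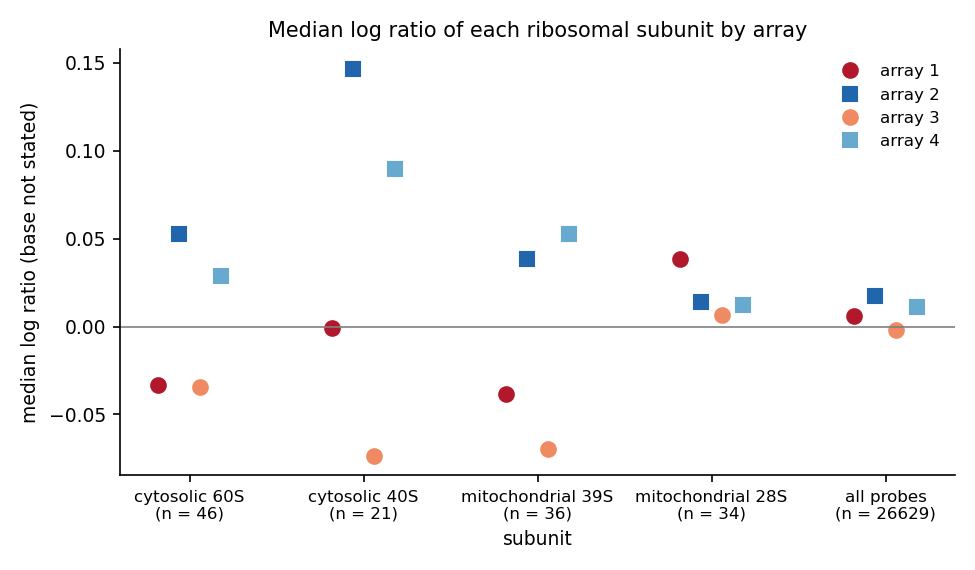
Median log ratio as deposited (base not stated) of the probes of each ribosomal subunit and of all probes, with 1 point per array. The 60S, 40S, 39S and all-probe medians lie higher on arrays 2 and 4 than on arrays 1 and 3. The 28S medians lie between 0.00647 and 0.0382. Subunits are by name, so 28S includes MRPS30 and MRPS18A.

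Clones of 1 gene gave a second reading. Of the 15 cytosolic genes with several clones, 10 had all clones of 1 sign in the shared component, against 6 of 13 mitochondrial genes and 42% of 5075 genes in all. In the alternating component these counts were 5 of 15 and 10 of 13, against 39.1% of all. Across probes, arrays of 1 orientation correlated at Pearson r of 0.71 and 0.75 over the 67 cytosolic probes and 0.45 and 0.51 over the 70 mitochondrial probes. Arrays of opposite orientation lay between -0.0035 and 0.27 and between -0.12 and 0.22. Over all probes r was 0.43 and 0.56 for arrays of 1 orientation and between -0.16 and 0.055 for arrays of opposite orientation. These are descriptions across probes, which share arrays and dyes and are not independent.

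Members with a known special role did not pass unless named above. RPL5 and RPL11, which with the 5S RNA bind MDM2, had shared values of -0.12 and -0.10 (adjusted p = 0.333 and 0.511). RPL11 alternated at 0.19 (adjusted p = 0.0721). RPS6, the substrate of S6 kinase, stood at -0.13 (adjusted p = 0.3), RPS7 at -0.09 (adjusted p = 0.536) and both clones of the stalk protein RPLP2 near 0, at 0.00627 and 0.00666. Among mitochondrial proteins whose mutation causes respiratory-chain disease, MRPS16 stood at 0.10, MRPL3 at -0.09 and MRPL44 at -0.03, with adjusted p between 0.462 and 0.858.

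Paralogues were compared where both were measured. RPL26 (-0.24) and RPL26L1, its near-identical paralogue, were both negative, the latter at -0.21 over 3 clones (adjusted p = 0.0732 over genes), and cross-hybridisation between them was not tested. RPL10 (0.13 over 2 clones) and RPL10L, its testis-expressed retrocopy (0.07), did not pass in the shared component, nor did RPL39 (0.04) and RPL39L (0.09) or RPL7 (0.07) and RPL7L1 (0.02). The mitochondrial MRPS18A, MRPS18B and MRPS18C stood at 0.07, -0.04 and 0.02.

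Other genes of the pathway were taken from lists and tested per gene. Of 12 measured non-ribosomal TOP mRNAs, 4 passed the test with a positive sign, 0 with a negative sign and 8 did not pass in the shared component, where 3.04% of all genes passed. Whether past the threshold or not, 7 of the 12 lay above 0, as did 54.2% of all genes. The lowest were EIF3F (-0.22, limma adjusted p = 0.258) and EEF2 (-0.14, adjusted p = 0.139). Those that passed were EEF1A1 (0.31, adjusted p = 0.0282), the elongation factor that brings aminoacyl-tRNA; TPT1 (0.27, adjusted p = 0.0119), a translationally controlled tumour protein; and the initiation factors EIF3E (0.20, adjusted p = 0.0358) and EIF4B (0.20, adjusted p = 0.0438). The list's median was 0.0388, against 0.00687 for all genes. TPT1 read -0.02 and 0.02 on arrays 1 and 3 and 0.54 and 0.52 on arrays 2 and 4, and it also passed in the alternating component (-0.27, adjusted p = 0.0246), as did the nucleolar protein NPM1 (-0.22, adjusted p = 0.0395), so that 2 of 12 passed there, against 3.29% of all genes.

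None of 27 mitochondrial ribosome assembly and translation factors passed in either component, the largest statistics being those of the GTPase NOA1 (shared 0.15, adjusted p = 0.129) and the recycling factor MRRF (alternating -0.17, adjusted p = 0.0627). None of 22 regulators of ribosomal protein synthesis passed, with LARP1 at 0.13 (adjusted p = 0.178) in the shared and the S6 kinase RPS6KB2 at -0.18 (adjusted p = 0.0552) in the alternating component. None of 5 further mitochondrial ribosome genes passed, GADD45GIP1 being at 0.06 in the shared and PTCD3 at -0.14 in the alternating component. Of all genes, 3.04% passed in the shared and 3.29% in the alternating component. At those shares, lists of these sizes would hold few calls or none. Among markers of other cell types, 0 of 5 fibroblast, 1 of 4 blood (NKG7, -0.26) and 0 of 4 endothelial markers passed in the shared component, and 1 of 4 epithelial markers did (KRT8, 0.39). In the alternating component 1 of 4 endothelial markers passed (TEK, -0.20) and none of the others; their part in the ribosomal protein values was not tested.

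The values were also set beside the pyrimidine run at the start, with no test. The 28 cytosolic genes with the run had a shared median of 0.0163 and the 10 without it 0.00872, and their alternating medians were -0.0437 and -0.0528. Per gene, 4 of the 28 and 1 of the 10 (RPL27) passed in the shared component, where 3.04% of all genes did. In the alternating component 1 of the 28 and 2 of the 10 passed, against 3.29% of all genes. RPS20, which passed per gene in the shared component, was not found in the promoter table and is in neither set. Of the mitochondrial genes, 1 of the 6 with the run (MRPS33) and 0 of the 39 without it passed in the shared component, and 0 of either in the alternating component.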

How the data were processed

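The authors used ArrayMagic with variance-stabilizing normalization (VSN) on the scanner files and limma for their tests, per the series design text. The deposited log ratios were used unchanged. VSN compresses ratios of dim spots, which could not be filtered because only ratios were at hand. Probe names came from the platform annotation. The gene table (GRCh38.p14) held an ID for all 137 member probes and changed 0 symbols, and 29 probes with several symbols, at least 1 of which fits the names, were not used.

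Each probe, and each gene as the mean of its probes, entered a linear model with limma 3.58.1 under R 4.3.3, with an intercept and the dye orientation. Tests were two-sided, with p-values adjusted by Benjamini and Hochberg across the whole table of probes or of genes, at 0.05. The 2 residual degrees of freedom were moderated by 7.22 prior degrees for probes and 5.89 for genes.

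Members, lists and the rule for named genes were chosen with earlier results of these data known. That rule took members past the threshold, the 5 highest and 5 lowest per class and component, members with special roles, paralogue pairs, and list members past the threshold or with the largest statistic. The motifs, the definition of the pyrimidine run and the sequences shown were chosen after the log ratios had been seen.

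The model was tested on simulated data, with 200 changed among 26629 probes, in 2 versions. With the moderated variances as noise, 31 of 209 calls in the shared component were false (14.8%), and 45 of 67 probes changed by 0.25 were recovered. The noise was then changed to variances drawn from the fitted prior, which gave 11 false calls of 154 (7.14%) and recovered 10 of 67. Both shares of false calls lie above the nominal 5%. All changes of 0.5 and 1 were recovered in both versions.

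The alternatives tried were leaving out the dye term, median centring, quantile normalization, no moderation, robust moderation through statmod 1.5.0, probes with 1 symbol, a threshold of 0.1, gene averages, class means, genes with 1 probe, and leaving out each array. Plots were made in matplotlib 3.10.9 (Python 3.11.15).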

Additional observations from a re-analysis of the deposited data

Results flagged for a closer look

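Of 41 sets of 4 array values tested for 1 array far from the other 3, 2 stood out. Chance gives about 1 in 20 for values alike apart from noise. That share is only a rough guide here, because the arrays differ in dye orientation. In addition, 38 of the sets were probes named for passing or for their size. The RPS16 clone read 0.0702 on array 1 and between 0.244 and 0.264 on the others. The MRPL17 clone read -0.335 on array 3 and between -0.0819 and -0.0631 on the others. Neither clone passed the test in either component.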

How the results depend on the processing

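Median centring, quantile normalization, robust moderation and the restriction to probes with 1 symbol kept all 9 shared calls among the named probes. Median centring lost 2 of the 7 alternating calls, RPL24 and RPS12, and the other 3 of these settings kept all 7. Without the dye term the counts were 1 cytosolic and 0 mitochondrial shared probes and 0 cytosolic alternating probes. Among all probes 231 shared and 102 alternating calls were then left. Without moderation, with 2 residual degrees of freedom, the member counts were 0, 0 and 0, and all probes gave 0 shared and 4 alternating calls. At an adjusted p of 0.1 there were 3 of 70 mitochondrial shared, 13 of 67 cytosolic alternating and 4 of 70 mitochondrial alternating probes. Of all 26629 probes, 867 passed at 0.1 in the shared and 3154 in the alternating component. With gene averages the cytosolic alternating count was 3. Leaving out 1 array gave 2 to 5 cytosolic and 0 to 2 mitochondrial shared calls, and 0 to 10 cytosolic and 0 to 1 mitochondrial alternating calls. Over all probes those fits gave 271 to 884 shared and 113 to 1874 alternating calls. No called probe changed sign under the settings fitted per probe. The shared difference of class medians turned negative without array 1 (-0.00693), without array 2 (-0.00271) and as a difference of means (-0.000943). The alternating one turned positive over genes with 1 probe (0.00427), and with gene averages it was -0.00167. No paired analysis was possible because all arrays belong to 1 group and each is already a ratio of 2 cultures. With 4 arrays, most calls near the threshold rest on all of them. Depth does not apply to these ratios, and signal over background is not known.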
